A study of Mus musculus with 15 samples.

Results

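The gastrocnemius is a mostly fast-twitch muscle of the calf. It was compared by RNA sequencing between 3 aged female mice with more positive frailty markers and 4 with fewer. None of these mice had been put through the downhill running given to other mice of the series. These 7 sedentary mice were taken from a series of 15 by their column labels, frail control against robust control, and no measured value was used to choose them. The names High Control and Low Control are used here for the frail and the robust group. All were C57BL/6JN mice older than 17 months, kept in their cages, and had been scored on treadmill endurance, grip strength, rotarod performance, body weight and a clinical frailty index. The groups were cut from the distribution of the scored cohort itself, so High means frailer than cohort mates rather than frail by an outside standard. The other 8 mice, 4 Low Run and 4 High Run, were sampled 24 h after downhill running and enter here through the shared estimate of the spread and in comparisons at the end. Each library came from a powdered portion of the muscle, so fibres, nerve, vessels, connective tissue and blood were sequenced together, and fewer cells of a type and less RNA per cell cannot be told apart.

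Frailty and loss of muscle function in old age are linked to withdrawal of motor nerve endings, loss of mitochondrial capacity, stiffening of the matrix around fibres and a slow inflammatory state. A muscle that loses nerve contact turns on embryonic and junctional genes over the whole fibre, a muscle under stretch turns on strain sensors such as Ankrd1, and a muscle that wastes turns on the ubiquitin ligases and proteasome that break down its myofibrils. The gene lists described here follow these programs, from the contractile fibre and its nerve to matrix, mitochondria, nucleus, signalling, immune cells and blood.

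Library totals ranged from 21110987 to 28142641 counts in the 7 mice and did not separate the groups (exact permutation test, two-sided, p = 0.657; the smallest p that 3 against 4 mice allow is 0.0286). Skeletal muscle transcripts dominated every library, with Ckm, the muscle creatine kinase, between 18764 and 29776 CPM (counts scaled to the library size) and Acta1, the skeletal actin, between 24379 and 39675. Low Control mouse D9 stood apart. On the first principal component of the 7 mice, which held 46% of the variance, D9 scored -88.2 while the other 6 mice lay between -10.2 and 27.8. The Low Control group was accordingly the more variable of the pair, with a biological coefficient of variation of 0.298 against 0.148 in High Control. Results that rest on D9, or on mouse D11 of the same group, are given with and without it.

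No gene passed a false discovery rate (FDR) of 0.1 between High Control and Low Control mice in edgeR's quasi-likelihood test of 16920 genes, which is 0.0% of them, and the smallest FDR was 0.704. Without adjustment 992 genes, 5.86% of those tested, had a p under 0.05, and of these 305 lay higher in High Control (1.8%) and 687 lower (4.06%). The CPM ranges of the groups did not overlap for 1760 genes (10.4%), 868 of them higher in High Control (5.13%) and 892 lower (5.27%), and 590 genes met both criteria. DESeq2 fitted to the 7 sedentary mice alone called 37 genes at an FDR of 0.1, 0.173% of the 21390 genes with an adjusted p. Of these 37, 8 were higher in High Control (0.0374%) and 29 lower (0.136%). All 37 kept their direction when any of the 7 mice was left out. Because they were chosen as large differences in these same mice, the kept direction is a description and not support. DESeq2 fitted to all 15 mice called none and had 1249 genes at an unadjusted p under 0.05. On data simulated for the 7 sedentary mice DESeq2 made more false calls than edgeR. The simulation gave every group the same spread and had no mouse like D9, so it cannot tell how many of the 37 calls are false. The 37 DESeq2 calls became 11 without D25, 18 without D67, 23 without D11 and 95 without D9. The gene-level statements that follow are therefore about levels and their spread between mice.

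**Figure D1:**
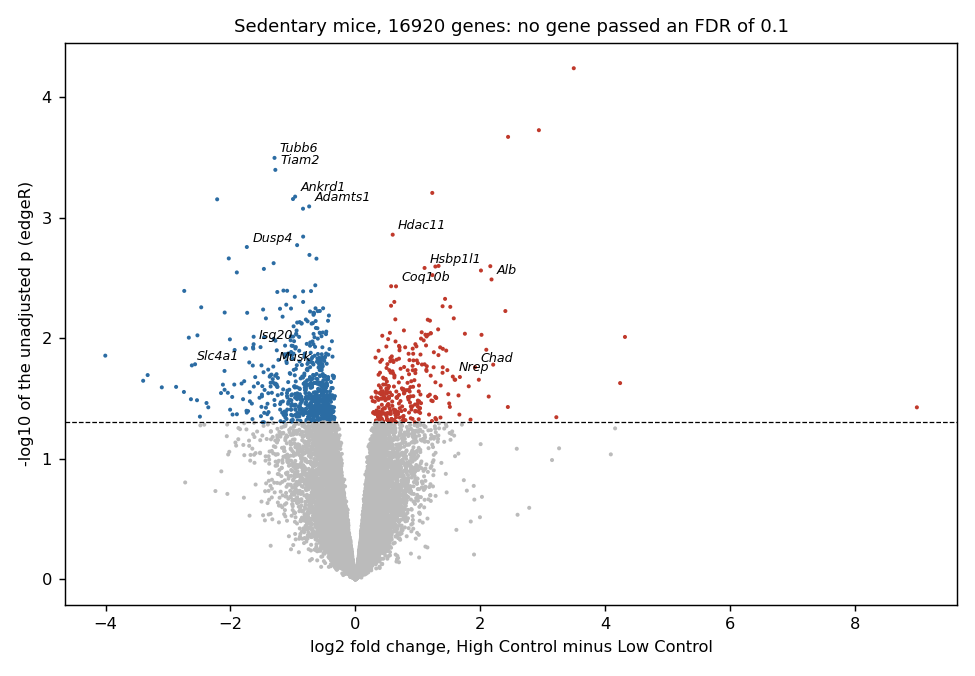
Each point is 1 of 16920 genes, with the log2 fold change of High Control minus Low Control on the x axis and -log10 of edgeR's unadjusted p on the y axis. The dashed line marks an unadjusted p of 0.05, above which 305 genes lay higher in High Control (red) and 687 lower (blue), and none passed an FDR of 0.1.

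The adult myosin heavy chains, which mark fibre type, overlapped between the groups. Per kilobase of exon, Myh4, the heavy chain of the fastest (IIB) fibres, made up 89.8% ± 1.36 (SD, n = 4) of the adult myosin heavy chain signal in Low Control mice and 90.1% ± 0.34 (SD, n = 3) in High Control mice. Myh1, the IIX chain, made up 5.71% ± 1.0 and 5.99% ± 0.581. Myh2, the IIA chain, made up 3.41% ± 0.686 and 3.02% ± 0.307, and the slow chain Myh7 made up 1.05% ± 0.329 and 0.864% ± 0.249. The ranges of all 4 chains overlapped, with unadjusted edgeR p-values from 0.336 for Myh7 to 0.933 for Myh1, and the signs for Myh4 and Myh1 depended on single mice or on the length correction. Of 11 slow fibre genes 10 had a negative log2 fold change with a median of -0.22. Of 13 fast fibre genes 10 had a positive one with a median of 0.15, against a median of -0.0216 over all genes tested. No member of either list reached an unadjusted p of 0.05. Of the 13 fast fibre genes 3 lay higher without overlap, beside 5.13% of all genes. The slow median became -0.080 without D67. The fast median became 0.067 without D23, 0.091 without D11, 0.27 without D8 and 0.007 without D9 and D11 together.

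Of the 37 genes called by DESeq2 on the sedentary mice, 7 were called again with each of the 7 mice left out, and all of these were lower in High Control, among them Ankrd1, Eda2r, Tubb6, Aif1l, Srcap and the pseudogene AC116841.1, whose reads may come from its parent gene. Ankrd1, an ankyrin repeat protein of the sarcomere that is induced by stretch and by denervation, was at 65.3, 79.3, 77.6 and 58.4 CPM in Low Control mice D8, D9, D11 and D98 and at 34.4, 36.8 and 36.5 CPM in High Control mice D23, D25 and D67. Every Low Control mouse was above every High Control mouse, and the level was 1.95-fold lower in High Control. The log2 fold change was -0.97 ± 0.23 (SE) with an unadjusted edgeR p of 0.000669. DESeq2 on the sedentary mice called it with an adjusted p of 0.000155. Ankrd1 lies on chromosome 19 at 36111961-36120099 (GRCm38, minus strand).

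Eda2r, a receptor for the ligand ectodysplasin A2 that is known to rise in ageing muscle, was at 58.8, 74.9, 75.8 and 52 CPM in the Low Control mice and at 32.7, 34.7 and 29.6 CPM in the High Control mice. The groups did not overlap and the level was 2.02-fold lower in High Control, with an adjusted DESeq2 p of 0.00159 on the sedentary mice, although edgeR's unadjusted p was 0.0293 and no longer under 0.05 without D9 (0.0540) or D11 (0.0576). Tubb6, a beta-tubulin of regenerating and diseased fibres, was at 28.5, 51.9, 49.7 and 31.3 CPM against 15.1, 16.4 and 17.8 CPM, and had the lowest p of any protein-coding gene above 1 CPM (log2 fold change -1.30 ± 0.28 SE, unadjusted edgeR p of 0.000319). Its Low Control values fell into a higher pair, D9 and D11, and a lower pair, and even the lower pair was above all High Control mice. Aif1l, an actin-bundling protein, was at 11.1, 12.4, 13.0 and 14.6 CPM against 3.55, 6.57 and 5.89 CPM, where the lowest Low Control mouse was well above the highest High Control mouse. Ablim1, an actin-binding LIM protein, was at 126, 144, 148 and 111 CPM against 90.3, 65.4 and 82.7 CPM without overlap.

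**Figure D2:**
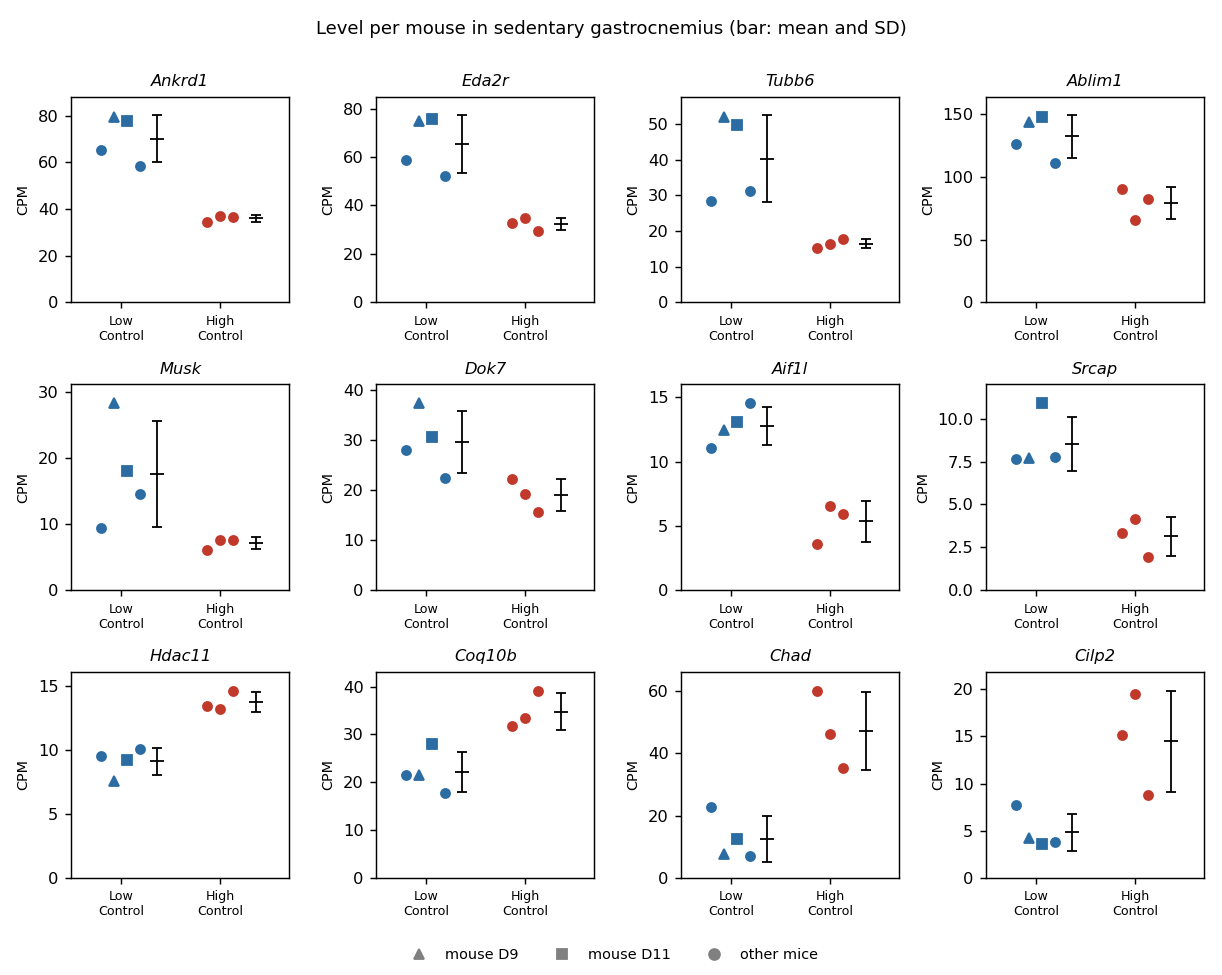
Level in CPM of 12 genes in each sedentary mouse, with the mean and SD of each group beside the points and mice D9 and D11 marked. In the 8 genes of the upper panels all 4 Low Control mice lie above the 3 High Control mice, and in the 4 lower panels all lie below them.

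The upstream sequences of Ankrd1 and Musk are shown because the former is a known target of the strain-responsive TEAD factors and the latter, the junction kinase described next, of myogenic factors, and that of Eda2r is shown beside them as the gene with the next lowest DESeq2 p. The 250 bases before the RefSeq start were read on the coding strand (GRCm38.p6), with capitals marking either GGAATG, in its forward or reverse form CATTCC, the core of the MCAT element bound by TEAD factors, or CAGCTG, an E-box form used by myogenic factors. Ankrd1 (chr19:36119845-36120094, minus strand) held GGAATG at 2 places, the first 210 bases before the start. Eda2r (chrX:97377210-97377459, minus strand) held 1, 32 bases before the start, in reverse form. Musk (chr4:58285712-58285961, plus strand) held 1 CAGCTG, 68 bases before the start.
Ankrd1: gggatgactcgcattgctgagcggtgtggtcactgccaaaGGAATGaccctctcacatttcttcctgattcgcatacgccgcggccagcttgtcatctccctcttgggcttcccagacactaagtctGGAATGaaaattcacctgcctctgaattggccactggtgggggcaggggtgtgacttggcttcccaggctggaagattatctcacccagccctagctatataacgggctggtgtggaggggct
Eda2r: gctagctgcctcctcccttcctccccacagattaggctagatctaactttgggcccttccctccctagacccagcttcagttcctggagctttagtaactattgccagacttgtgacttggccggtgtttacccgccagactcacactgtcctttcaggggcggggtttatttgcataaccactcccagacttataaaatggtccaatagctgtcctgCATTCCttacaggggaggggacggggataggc
Musk: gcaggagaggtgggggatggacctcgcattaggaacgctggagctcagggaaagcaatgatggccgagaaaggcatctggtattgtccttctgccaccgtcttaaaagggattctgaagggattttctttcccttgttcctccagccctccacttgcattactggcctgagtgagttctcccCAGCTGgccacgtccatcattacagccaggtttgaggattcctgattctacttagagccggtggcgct
Over the 32851 upstream windows of this length in the same table, 12.6% held GGAATG in either form and 13.0% held CAGCTG, so each match is a description of the sequence and not evidence of a bound site. The upstream windows of Chad, Cilp2 and Dok7 held neither motif.

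The list of acetylcholine receptor and denervation genes had 18 of 23 members with a negative log2 fold change, a median of -0.33 that stayed between -0.27 and -0.43 whichever control mouse was left out, and 5 members at an unadjusted p under 0.05, all lower, beside 4.06% of all genes. Musk, the receptor kinase that assembles the junction, was at 9.46, 28.3, 18.0 and 14.5 CPM in Low Control mice and at 6.02, 7.61 and 7.56 CPM in High Control mice, without overlap but with a wide spread among the Low Control animals. Its difference of 2.49-fold had an unadjusted edgeR p of 0.0172, which became 0.0613 without D9. Dok7, the adaptor that activates Musk, was at 28.0, 37.5, 30.7 and 22.5 CPM against 22.2, 19.3 and 15.7 CPM, where the lowest Low Control and the highest High Control mouse nearly met. Ncam1, a cell adhesion molecule of junctions and denervated fibres, was at 11.1, 13.4, 15.5 and 16.3 CPM and stood at 10.1 CPM in all 3 High Control mice. The receptor subunit Chrng, the form of denervated and fetal muscle, was at most 1.39 CPM in every mouse. Runx1, a transcription factor of denervated muscle, was at 9.85, 19.0, 14.9 and 7.64 CPM against 5.60, 7.94 and 7.85 CPM with overlap.

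Among satellite cell and regeneration genes 14 of 20 had a negative log2 fold change, with a median of -0.17. It became -0.28 without D8, -0.090 without D9, -0.093 without D98 and -0.095 without D67. Myh3, the embryonic myosin heavy chain of newly formed fibres, was at 12.5, 15.1, 16.1 and 16.1 CPM in Low Control mice and at 11.6, 4.80 and 6.89 CPM in High Control mice. The groups stayed apart, although mouse D23 lay just under the lowest Low Control value. Calcr, the calcitonin receptor of quiescent satellite cells, was higher in the frailer mice at 0.541, 0.628 and 0.479 CPM against 0.13, 0.124, 0.265 and 0.270 CPM, all under 1 CPM. In the Notch list 11 of 17 members had a negative log2 fold change. Its endothelial ligand Dll4 was at 13.8, 14.1, 10.3 and 10.1 CPM against 7.57, 6.68 and 7.80 CPM, and Rbpj, the DNA-binding partner of Notch, was at 23.7, 33.1, 21.2 and 21.2 CPM against 18.8, 17.5 and 20.4 CPM. Endothelial markers had 14 of 16 members with a negative sign and a median of -0.20, which became -0.095 without D23 and -0.12 without D9, none at an unadjusted p under 0.05, and their summed level overlapped between the groups, at 837 to 1135 CPM in Low Control and 853 to 935 CPM in High Control.

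Sln, sarcolipin, an inhibitor of the calcium pump of the sarcoplasmic reticulum, was at 11.7, 10.6, 26.7 and 27.7 CPM in Low Control mice and at 6.72, 8.79 and 4.98 CPM in High Control mice. The Low Control values formed a low pair and a high pair, both above the High Control group, and DESeq2 on the sedentary mice called the gene with an adjusted p of 0.0913. It was the only one of 20 calcium release and reuptake genes at an unadjusted edgeR p under 0.05, beside 5.86% of all genes. This p was 0.0498, and it became 0.102 without D11. Of the 20 genes, 16 had a positive log2 fold change. Hspb7, a small heat shock protein of the sarcomere, was at 930, 1718, 797 and 724 CPM against 762, 348 and 420 CPM, and overlapped between the groups through mouse D23. Bdnf, a neurotrophin that muscle also makes, was at 2.34, 2.36, 2.52 and 1.89 CPM against 1.43, 0.849 and 0.910 CPM and did not overlap.

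Chad, chondroadherin, a collagen-binding protein of cartilage and tendon, was at 22.9, 7.66, 12.5 and 6.99 CPM in Low Control mice and at 60.1, 46.1 and 35.2 CPM in High Control mice. All 3 High Control mice were above the highest Low Control mouse, and the difference was 3.77-fold (log2 fold change 1.92 ± 0.72 SE). DESeq2 on the sedentary mice called Chad with an adjusted p of 0.00497. The unadjusted edgeR p of Chad was 0.0174, and it was 0.0519 without D23. Cilp2, a cartilage intermediate layer protein, was at 7.72, 4.26, 3.54 and 3.78 CPM against 15.1, 19.5 and 8.81 CPM, a difference of 3.01-fold with an adjusted DESeq2 p of 0.0148. Its unadjusted edgeR p was 0.0221, and it became 0.0534 without D11, 0.0506 without D98 and 0.0805 without D25. Comp, cartilage oligomeric matrix protein, which was added to the description after its values were seen, was at 39.4, 13.7, 19.7 and 13.9 CPM against 106, 60.6 and 37.5 CPM and overlapped. Low Control mouse D8 was the highest of its group in all 3 genes. The share of tendon taken with each muscle was not measured, and its part in these values was not tested.

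Of the 25 extracellular matrix and fibroblast markers 23 had a positive log2 fold change, with a median of 0.27 that became 0.11 without D9, and none reached an unadjusted p of 0.05. Their summed level overlapped between the groups, at 2146 to 3249 CPM in Low Control and 3036 to 3652 CPM in High Control, and D9 had the lowest sum. Of the 25 markers 2 lay higher without overlap, beside 5.13% of all genes. Col1a1 and Tnmd are given as examples and were not chosen by the rule for named genes. Col1a1, a chain of type I collagen, was at 61.7, 13.3, 71.1 and 74.3 CPM against 166, 151 and 96.3 CPM without overlap, although its unadjusted p was 0.0686. The tendon marker Tnmd was at 8.64, 1.95, 5.48 and 4.90 CPM against 7.65, 14.0 and 9.29 CPM. Adamts1, a matrix protease, went the other way at 56.6, 56.3, 61.4 and 44.4 CPM against 33.6, 37.6 and 26.9 CPM (log2 fold change -0.74 ± 0.18 SE, unadjusted p of 0.000807).

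Nuclear genes of the mitochondrion lay slightly and evenly higher in the frailer sedentary mice. Complex I had 36 of 36 subunits with a positive log2 fold change and a median of 0.22, complexes II to V had 38 of 39 with a median of 0.20, the tricarboxylic acid cycle had 17 of 17 with a median of 0.13 and the mitochondrial ribosome 68 of 77 with a median of 0.15. Between 6 and 13 members of each of these lists did not overlap between the groups, all higher, beside 5.13% of all genes. In these 4 lists only Mrps18c and Suclg2 reached an unadjusted p of 0.05, beside 1.8% of all genes that lay higher at that p. The summed level of complex I was 6680, 5578, 6628 and 6644 CPM in Low Control mice and 7508, 6762 and 7588 CPM in High Control mice. D9 had the lowest sum, and without it the complex I median became 0.13, that of complexes II to V 0.12 and that of the mitochondrial ribosome 0.099. Mrps18c, a protein of the small mitochondrial ribosomal subunit, was at 16.4, 14.2, 17.0 and 16.3 CPM against 20.2, 21.5 and 22.9 CPM. Suclg2, a subunit of succinyl-CoA ligase, was at 55.4, 49.6, 55.5 and 51.5 CPM against 66.2, 58.9 and 65.0 CPM. Its unadjusted edgeR p was 0.0310, and it became 0.0609 without D9.

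Coq10b, a coenzyme Q-binding protein, was at 21.4, 21.4, 27.9 and 17.8 CPM in Low Control mice and at 31.7, 33.3 and 39.1 CPM in High Control mice. It lay higher by 0.65 ± 0.19 (SE) on the log2 scale, and its unadjusted p stayed at or below 0.0221 in all fits. Tfb1m, which methylates the mitochondrial ribosomal RNA, was at 6.86, 4.76, 7.96 and 8.57 CPM against 9.19, 11.2 and 12.1 CPM. Pars2, the mitochondrial prolyl-tRNA synthetase, was at 3.04, 2.81, 3.41 and 2.97 CPM against 4.79, 5.13 and 4.36 CPM, the highest Low Control mouse lying well under the lowest High Control mouse. The regulators of mitochondrial biogenesis did not follow, since 17 of 22 had a negative log2 fold change with a median of -0.12, which became -0.069 without D9 and -0.19 without D8. Ppara, a nuclear receptor of fat oxidation, was at 5.42, 7.95, 9.69 and 6.68 CPM against 5.21, 4.50 and 2.73 CPM, and Pprc1, a coactivator of the PGC-1 family, was at 66.9 CPM in D9 and between 18.0 and 30.5 CPM in the other 6 mice. Fuel genes had mixed signs. Of 30 genes of fatty acid uptake and oxidation 20 had a negative sign, and their median of -0.13 turned to 0.050 without D9. Of 23 glycolysis and glycogen genes 13 had a positive sign with a median of 0.13, which became 0.023 without D9, and the cytosolic ribosomal proteins had 34 of 78 positive and a median of -0.014.

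Of 55 histone lysine methyltransferases and demethylases 46 had a negative log2 fold change with a median of -0.31, 12 were lower at an unadjusted p under 0.05 beside 4.06% of all genes, and 14 were lower without overlap, beside 5.27% of all genes. Without D9 the median of this list became -0.15. Kmt2a, a methyltransferase of histone H3 lysine 4, was at 45.3, 71.4, 38.6 and 44.4 CPM in Low Control mice and at 32.7, 29.9 and 31.6 CPM in High Control mice. Its unadjusted p stayed under 0.05 in each of the alternative fits, with a log2 fold change of -0.67 in all mice and -0.45 without D9. Kdm3b, a demethylase of lysine 9, was at 47.1, 71.9, 44.2 and 40.4 CPM against 37.4, 34.3 and 28.4 CPM. Srcap, the remodeler that loads histone H2A.Z, was at 7.68, 7.70, 10.9 and 7.80 CPM against 3.36, 4.14 and 1.91 CPM and DESeq2 called it in all 7 fits with a mouse left out. No Low Control mouse came near the High Control range of Srcap. Med12, a subunit of the Mediator kinase module, was at 44.8, 55.7, 41.1 and 43.1 CPM against 28.5, 28.0 and 26.3 CPM without overlap. Nucleoporins had 17 of 19 members with a negative sign and a median of -0.26, which became -0.12 without D9. Nup214 was at 29.7, 33.3, 28.7 and 23.5 CPM against 21.5, 21.7 and 19.8 CPM. Nup188 was at 12.2, 21, 14.4 and 11.4 CPM against 10.7, 11.0 and 7.37 CPM. Nup93 was at 49.7 CPM in D9 and between 16.7 and 23.1 CPM in the other 6 mice. The first 2 did not overlap between the groups, while Nup93 did. Hdac11, a histone deacetylase that also removes fatty acyl groups, lay higher in the frailer mice at 13.4, 13.3 and 14.6 CPM against 9.55, 7.58, 9.20 and 10.1 CPM, with an unadjusted p of 0.00138 that stayed under 0.05 in every alternative fit.

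The log2 fold change also varied with gene length. Over 10 equal bins of genes ordered by exon length, its median went from 0.0672 in the bin of the shortest genes, of median length 592 bases, to -0.142 in that of the longest, of median length 11828 bases. Across 16906 genes Spearman's rho between length and log2 fold change was -0.199, and -0.190 without D9, where genes are not independent replicates. Per mouse, the median log2 CPM of the shortest bin minus that of the longest, centred over mice, was -0.00141, -0.264, -0.0263 and -0.0270 in the Low Control mice and 0.178, 0.0504 and 0.158 in the High Control mice, without overlap. Offsets for length and GC content, fitted in each mouse, remove such a trend by construction. With them the medians of all 10 bins lay between -0.0244 and 0.00704. The median of the histone enzyme list became -0.20 and that of complex I 0.16. RNA integrity of the libraries was not analysed here and its part in the length pattern was not tested.

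**Figure D3:**
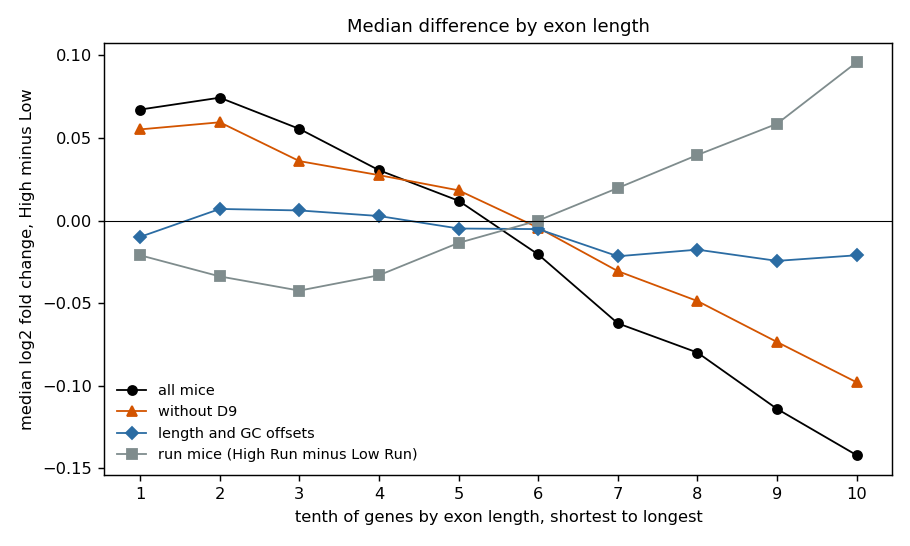
Median log2 fold change (y axis) in each of 10 bins of genes by exon length (x axis, shortest to longest) for High minus Low in sedentary mice with all mice, without D9 and with length and GC offsets, and in run mice. The sedentary line falls from 0.0672 to -0.142. The offset line stays near 0, because the offsets remove a length trend by construction. The line of the run mice has the opposite slope, from -0.0210 to 0.0958.

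Of 25 atrophy and FoxO genes 21 had a negative log2 fold change with a median of -0.38, and the median became -0.019 without D9. The summed level of this list was 16350 CPM in D9 and between 3966 and 7766 CPM in the other 6 mice. Trim63, the muscle ubiquitin ligase MuRF1, chosen as an example after its values were seen, was at 1413, 6083, 452 and 212 CPM in Low Control mice and at 736, 458 and 590 CPM in High Control mice. Fbxo30, a ubiquitin ligase of the atrophy program, was at 22.4, 54.4, 25.2 and 19.3 CPM against 16.4, 14.3 and 21.3 CPM. Proteasome subunits had 34 of 37 members with a negative sign and a median of -0.29 that became -0.067 without D9, and Psmd11, a lid subunit, was at 410 CPM in D9 and between 115 and 169 CPM in the others. Metallothioneins had a median of -0.86 that turned to 0.48 without D9. Cdkn1a, the cell cycle inhibitor p21, was at 162, 378, 89.0 and 82.6 CPM against 96.4, 44.7 and 52.9 CPM.

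The antioxidant genes Srxn1, Txnrd1 and Cat had the same form. Srxn1, sulfiredoxin, was at 125 CPM in D9 and between 28.7 and 50.1 CPM in the others. Txnrd1, thioredoxin reductase, was at 278 CPM in D9 and between 92.9 and 145 CPM elsewhere, and Cat, catalase, was at 311 CPM in D9 and between 100 and 155 CPM elsewhere. In insulin signalling, Pik3r1, the regulatory subunit of PI3-kinase, was at 135, 307, 68.2 and 57.3 CPM against 49.4, 63.8 and 50.9 CPM, and Insr, the insulin receptor, was at 194 CPM in D9 and between 62.4 and 97.5 CPM in the rest. In each of these 5 genes the lowest Low Control mouse lay within the High Control range. Mtor, the growth kinase, was less dependent on this mouse at 64.9, 79.0, 62 and 55.1 CPM against 48.0, 43.9 and 43.9 CPM without overlap, and its unadjusted p was 0.0145 with D9 and 0.0429 without it. Dusp4, a phosphatase of MAP kinases, was at 2.65, 7.00, 2.96 and 2.78 CPM against 1.39, 1.18 and 0.862 CPM, so that D9 was high and the other 3 Low Control mice were still above all High Control mice. Cd36, the fatty acid transporter, was at 914 CPM in D9 and between 275 and 488 CPM in the others. Eif2ak4, the amino acid sensor GCN2, was at 23.3 CPM in D9 and between 6.42 and 9.99 CPM in the others, while the cap-binding protein Eif4e3 lay higher in the frailer mice at 62.3, 60.7 and 74.3 CPM against 50.1, 49.6, 56.7 and 54.1 CPM.

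Over all genes, D9 was the highest of the 4 Low Control mice in 37% and the lowest in 37.2%. Among the 687 genes that lay lower in High Control at an unadjusted p under 0.05 it was the highest in 540 (78.6%), and among the 305 higher genes it was the lowest in 237 (77.7%). Leaving it out left 443 genes at that p, and leaving out D9 and D11 together left 285, of which 120 lay higher in High Control and 165 lower.

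**Figure D4:**
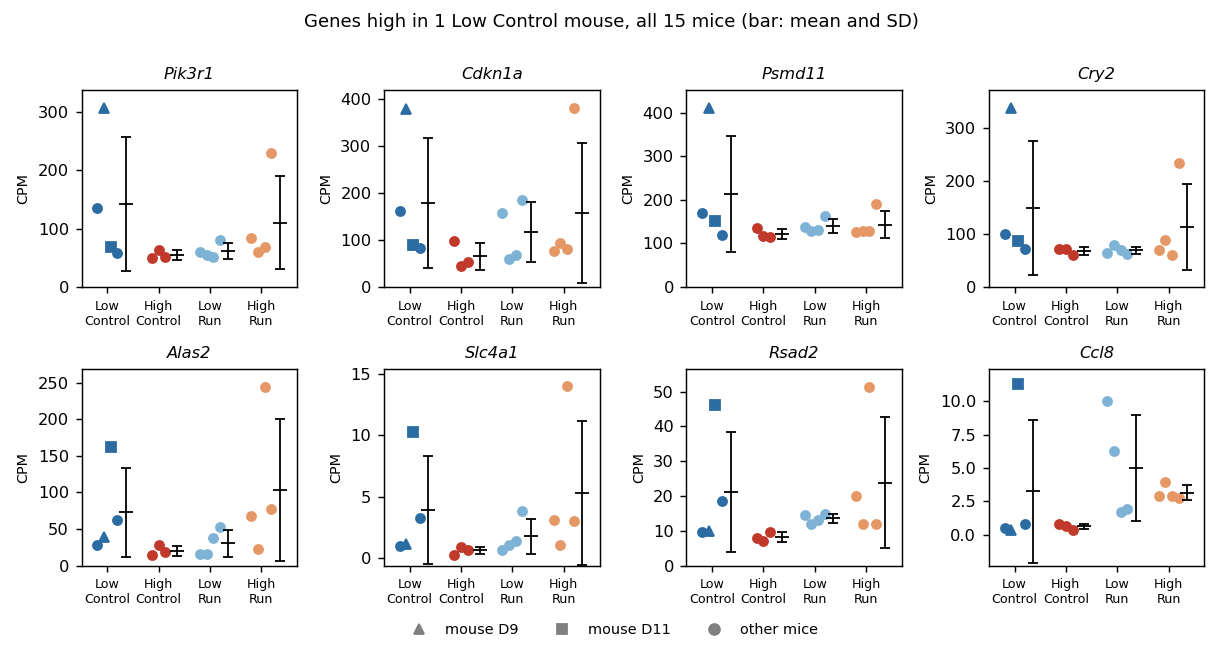
CPM of 8 genes in all 15 mice, with the mean and SD of each group beside the points. The upper 4 genes are high in Low Control mouse D9 (triangle) and also in 1 High Run mouse, D62, and the lower 4 are high in Low Control mouse D11 (square), with Alas2, Slc4a1 and Rsad2 also high in High Run mouse D53.

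Type I interferon-stimulated genes had 23 of 28 members with a negative sign and a median of -0.31, which became 0.043 without D11. The interferon-induced GTPases had 16 of 17 negative and a median of -0.70, which became 0.13 without D11. Rsad2, the antiviral protein viperin, was at 9.76, 10.0, 46.1 and 18.7 CPM against 7.99, 7.05 and 9.72 CPM. Isg20, an interferon-induced exonuclease, was at 2.91, 4.18, 10.6 and 4.90 CPM against 1.62, 1.92 and 1.91 CPM, and here the other 3 Low Control mice were also above the High Control group (unadjusted p 0.0112, and 0.0499 without D11). Ifi47, an interferon-induced GTPase, was at 4.64 CPM in D11 and between 1.03 and 2.55 CPM in the others. Mx2 was at 0.391, 0.580, 0.796 and 0.695 CPM against 0.425, 0.185 and 0.335 CPM. Ccl8, a monocyte chemokine, was at 11.3 CPM in D11 and under 1 CPM in the other 6 mice, and its log2 fold change of -2.36 turned to 0.13 without D11.

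Macrophage markers had 18 of 20 members with a negative sign, a median of -0.36 that was -0.28 without D11 and -0.51 without D9, and 3 members lower at an unadjusted p under 0.05, beside 4.06% of all genes. Mpeg1, perforin-2, was at 7.94, 6.95, 9.77 and 8.65 CPM against 5.21, 4.28 and 5.60 CPM without overlap. Its unadjusted edgeR p was 0.0210, and it became 0.0509 without D11 and 0.0795 without D25. Ctss, cathepsin S, was at 10.4, 8.94, 18.0 and 13.4 CPM against 6.29, 6.94 and 9.43 CPM and overlapped. Cd163, the hemoglobin scavenger receptor, was at 17.2, 17.0, 24.8 and 16.0 CPM against 7.88, 13.6 and 16.2 CPM. The summed level of the 20 markers was 220 to 351 CPM in Low Control and 159 to 245 CPM in High Control.

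Erythroid transcripts had 10 of 11 members with a negative sign and a median of -1.62, which became -0.84 without D11. Alas2, the heme synthesis enzyme of red cell precursors, was at 27.8, 39.1, 162 and 62.3 CPM in Low Control mice and at 15.1, 28.2 and 18.4 CPM in High Control mice. Slc4a1, the anion exchanger band 3, was at 0.998, 1.16, 10.3 and 3.32 CPM against 0.309, 0.886 and 0.718 CPM, and Trim10 was at 3.49 CPM in D11 and under 1 CPM in the other 6 mice. Their summed level, 645 to 2636 CPM in Low Control and 486 to 665 CPM in High Control, overlapped. The amount of blood left in each muscle was not measured and its part in these values was not tested. Neutrophil markers overlapped at 13.2 to 88.8 CPM in Low Control and 6.54 to 54.2 CPM in High Control, and lymphoid, plasma and mast cell markers at 87.1 to 512 CPM and 181 to 540 CPM. Adipocyte markers had 8 of 15 members with a positive sign and sums of 1199 to 2600 CPM against 1322 to 1967 CPM, and Schwann cell and myelin markers had 8 of 15 with sums of 176 to 336 CPM against 238 to 276 CPM. None of the members of these last 4 lists reached an unadjusted p of 0.05. The immunoglobulin lambda gene Iglv1 was at 1.47, 1.74 and 0.144 CPM in High Control mice and at 0, 0.124, 0.0442 and 0.0386 CPM in Low Control mice. DESeq2 on the sedentary mice called it, but lambda genes share sequence and mouse D67 lay near the Low Control values.

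**Figure D5:**
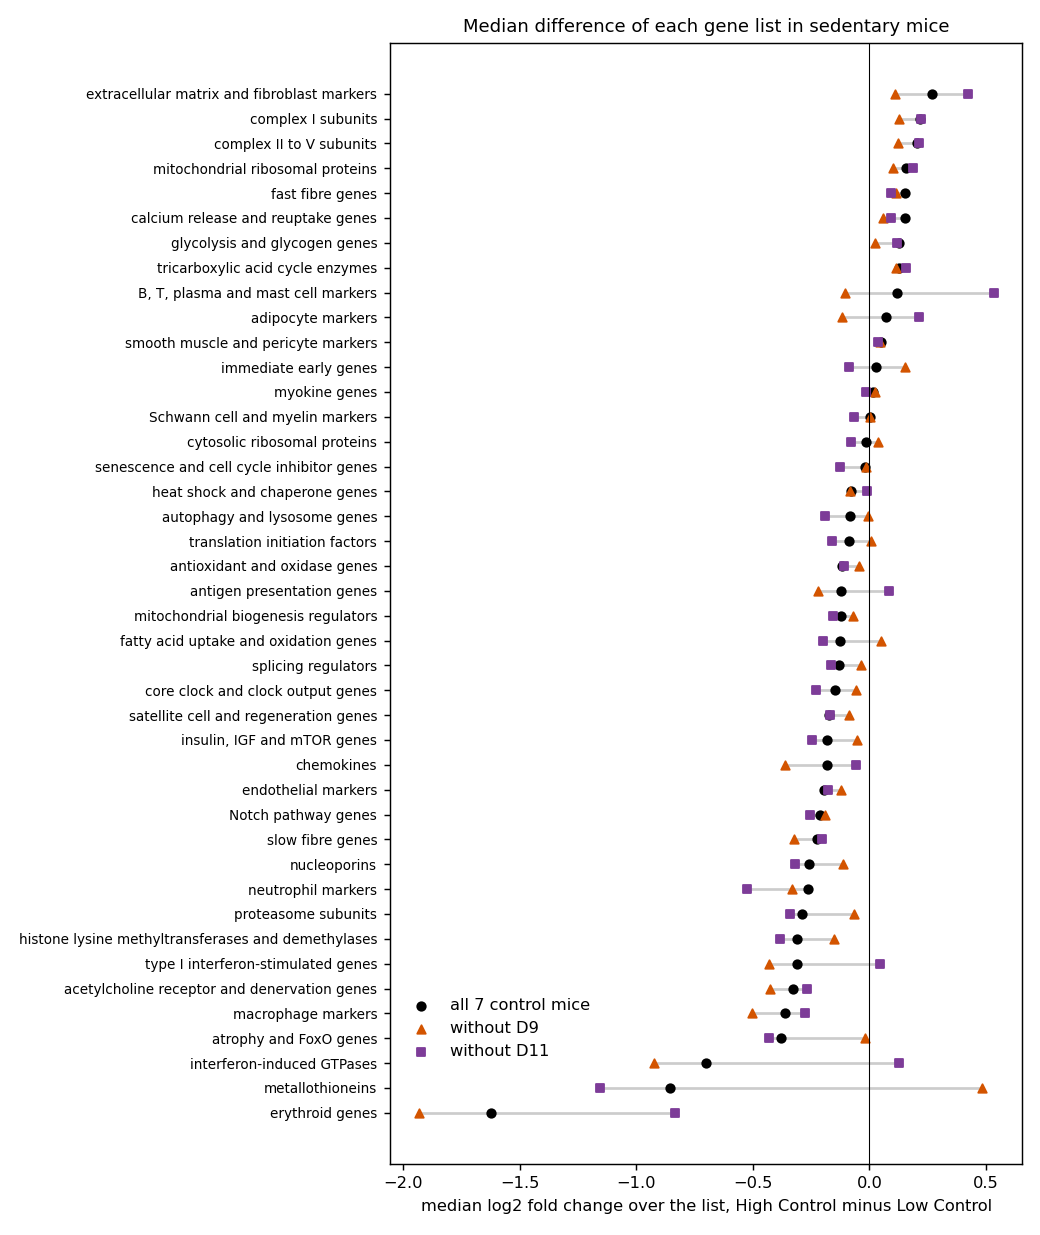
Median log2 fold change of High Control minus Low Control over the tested members of each of 42 gene lists (x axis), with all 7 sedentary mice (circles), without D9 (triangles) and without D11 (squares). The atrophy, proteasome and metallothionein lists move to or across 0 without D9, the interferon lists without D11, and the denervation and complex I lists keep their sign.

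Clock and immediate early genes had mixed signs. Of 19 clock genes 13 had a negative sign with a median of -0.15, which became -0.057 without D9, and Cry2, a repressor of the clock, was at 338 CPM in D9 and between 59.8 and 100 CPM in the others. Of 26 immediate early genes 16 had a positive sign with a median of 0.028, which ranged from -0.21 without D23 to 0.19 without D8. Nr4a1, an orphan nuclear receptor induced by activity, was at 470, 438 and 208 CPM in High Control mice and at 303, 236, 232 and 178 CPM in Low Control mice. Nr4a2 was at 12.5, 7.53 and 2.92 CPM against 5.60, 3.56, 3.32 and 3.32 CPM, so for both genes mice D23 and D25 were above all Low Control mice and D67 was not.

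Several genes outside these programs had low p-values. Tiam2, an exchange factor for the GTPase Rac, was at 7.85, 13.9, 7.78 and 5.33 CPM against 4.33, 2.7 and 3.73 CPM. Thsd7a, a thrombospondin repeat protein of endothelium, was at 3.25, 4.26, 4.42 and 3.47 CPM against 1.43, 2.29 and 2.06 CPM. Gda, guanine deaminase, was at 15.4, 29.6, 31.5 and 17.5 CPM against 12.1, 11.5 and 13.3 CPM. In each of these 3 genes every Low Control mouse was above every High Control mouse. Mab21l1 and the zinc finger factor Plagl2 also lay lower without overlap, by 0.84 on the log2 scale each. Among genes that lay higher, Nrep, neuronal regeneration related protein, was at 46.8, 93.3 and 67.6 CPM against 26.6, 5.05, 31.6 and 30.8 CPM. Fam189a2 was at 45.2, 51.5 and 47.9 CPM against 35, 21.5, 32.1 and 41.3 CPM, and Tha1, threonine aldolase, at 7.45, 8.01 and 9.10 CPM against 5.90, 4.35, 5.71 and 6.06 CPM. Hsbp1l1 was at 2.82, 2.36 and 4.45 CPM against 1.43, 1.20, 1.68 and 1.62 CPM. All High Control mice were above all Low Control mice in these 4 genes, and D9 was the lowest Low Control mouse in each. Cyp4f39, a fatty acid hydroxylase, was at 11.6, 8.94 and 6.32 CPM against 3.95, 1.57, 5.44 and 5.33 CPM, and Il4i1, a phenylalanine oxidase of immune cells, was at 2.43, 5.58 and 2.97 CPM against 1.56, 0.538, 1.64 and 2.08 CPM. Alb, albumin, was at 6.68 CPM in mouse D25 and at 1.39 and 1.05 CPM in the other High Control mice, against 0.502 to 0.781 CPM in Low Control, so its log2 fold change of 2.18 was set largely by D25. The ribosomal protein genes Rps27 and Rpl3 were at 5.55 and 26.9 CPM in D9 and at most 1.78 and 10.1 CPM in the other 6 mice. Both have near-identical copies, and only uniquely aligned reads were counted.

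The same comparison was made in mice that had run, 4 High Run against 4 Low Run. These mice are in neither sedentary group, although all 15 share 1 estimate of the spread in the model. No gene passed an FDR of 0.1 there, and 424 (2.51%) had an unadjusted p under 0.05, 257 higher in High Run (1.52%) and 167 lower (0.987%). Of the 305 genes that lay higher in High Control at that level, 89 (29.2%) also lay higher in High Run, where 52.2% of all genes did. Of the 687 lower genes 138 (20.1%) also lay lower in High Run, against 47.8% of all genes. High Run mouse D62 shared some of the high values of D9, with Pik3r1 at 230 CPM and Cry2 at 234 CPM. It did not share others, with Srxn1 at 41.3 CPM and Nup93 at 14.2 CPM. Without D9 and D62 the shares were 47.3% of 237 genes and 38.8% of 399 genes, against 48% and 52% of all genes. For the Frailty × Run interaction, the test of whether the frailty difference itself differed between sedentary and run mice, no gene passed an FDR of 0.1, 1342 (7.93%) had an unadjusted p under 0.05, and the smallest FDR among the named genes was 0.6.

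Some of the sedentary differences set the High Control mice apart from all 12 others, run mice included. High Control lay below all 12 for 62 genes (0.366% of those tested) and above all 12 for 81 (0.479%). Among the 79 named genes with an unadjusted p under 0.05, 10 lay below and 3 above. Of these 79, 54 did not overlap with Low Control, which for many was part of how they were chosen. Their counts are therefore not comparable with the shares of all genes. Ankrd1 was at 34.4 to 36.8 CPM in High Control and at 55.8 to 112 CPM in the other 12 mice, and Tubb6 was at 15.1 to 17.8 CPM against 21.6 to 65.0 CPM. Aif1l was at 3.55 to 6.57 CPM against 7.06 to 29.5 CPM, and Mpeg1 at 4.28 to 5.60 CPM against 6.95 to 18.1 CPM. Coq10b was at 31.7 to 39.1 CPM against 12.3 to 27.9 CPM, and Suclg2 at 58.9 to 66.2 CPM against 46.6 to 58.8 CPM. Chad did not separate in this way, since it was at 70.5, 21.2, 61.8 and 23 CPM in Low Run mice and at 15.2, 87.3, 92.4 and 6.24 CPM in High Run mice.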

How the data were processed

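RNA from powdered gastrocnemius of 15 mice was sequenced as polyA libraries. The authors aligned the reads to mm10 with STAR 2.7.9a and deposited unnormalized counts of uniquely aligned proper pairs per Ensembl gene, made on the same strand with featureCounts and without mitochondrial genes. The submitters' processing notes name Subread 2.0.3. The deposited transformed table was not used. Symbols and coordinates came from GENCODE M21 (GRCm38), which matched 55190 of 55450 genes.

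Counts were tested with edgeR 4.0.16 (R 4.3.3) by the quasi-likelihood F-test with 1 mean per group over all 15 mice, TMM normalization, filterByExpr and Benjamini-Hochberg adjustment. DESeq2 1.42.0 and limma 3.58.1 were used for alternatives. Each p-value sets a difference against the spread between mice within groups, which the main test estimated over all 15 mice. That shared estimate does not reflect the unlike biological coefficients of variation of Low Control (0.298) and High Control (0.148). Reads are not independent molecules, so counting error understates the spread. No 2 libraries of the same group agreed within sampling noise. The steps were tested on simulated data.

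Named genes were protein-coding, at a mean of at least 1 CPM and without overlap between the groups: the 10 higher and 10 lower with the lowest p, and the 5 of each sign with the largest fold change at p under 0.05. Up to 3 members of each list at p under 0.05, the 4 adult myosin heavy chains and up to 10 genes called by an alternative were added whether or not they overlapped. The comparison, members and lists were chosen with earlier results of these data known, so list counts are descriptions and carry no test. A few of the named genes are not reported here.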

Additional observations from a re-analysis of the deposited data

Results flagged for a closer look

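Among the 84 named genes, 14 had a Low Control mouse that lay far from the other 3. Its gap to its neighbour took up most of the group's range (Dixon's criterion), where chance alone gives about 1 in 20 for each group of values. Mouse D9 was the high one in 10 of the 14 and D11 in 3. The share over all genes was not computed, and the named genes were chosen on these same values. Over all genes D9 was the highest Low Control mouse in 37% and the lowest in 37.2%, so 14 of 84 describes the named genes only. D9 was at 7.00 CPM for Dusp4, 125 CPM for Srxn1, 21.6 CPM for Wdr62, 410 CPM for Psmd11, 54.4 CPM for Fbxo30, 49.7 CPM for Nup93, 23.3 CPM for Eif2ak4, 26.9 CPM for Rpl3, 66.9 CPM for Pprc1 and 338 CPM for Cry2. D11 was at 10.9 CPM for Srcap, 11.3 CPM for Ccl8 and 24.8 CPM for Cd163. Mouse D8 was at 5.60 CPM for Nr4a2. Wdr62 and Dusp4 kept the other 3 Low Control mice above all High Control mice, as did Srcap. At an FDR of 0.1 no gene passed the test of a frailty difference that differed between sedentary and run mice.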

How the results depend on the processing

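The count of genes at an FDR of 0.1 between the control groups stayed at 0 in every fit of this comparison except DESeq2 on the 7 control mice, which called 37. With each control mouse left out that DESeq2 count ranged from 11 (without D25) to 95 (without D9), with 23 without D11 and 18 without D67. At an unadjusted p under 0.05 the 992 genes became 1578 with voom quality weights, 1925 without a filter and 285 without D9 and D11, an alternative chosen after seeing the data. Leaving out 1 control mouse gave 443 (without D9) to 1805 (without D98), with 510 without D25 and 548 without D67. Leaving out 1 run mouse gave 305 (without D62) to 979 genes (without D53) in run mice. The 1342 interaction genes ranged from 785 (without D9) to 2357 (without D53), with 828 without D67 and 866 without D62. Of the 79 named genes at an unadjusted p under 0.05, 78 kept their direction in all fits and 22 stayed under 0.05 in all. A p under 0.05 was not kept by 28 without D9, 18 without D11 and 49 without both. These genes were chosen from the same mice, so the kept direction is a description and not support. With 1 control mouse left out, the log2 fold change of Ccl8 ranged from -2.73 (without D9) to 0.13 (without D11), that of Myh4 from -0.123 (without D11) to 0.061 (without D8), and that of Myh1 from -0.070 (without D11) to 0.067 (without D9), with -0.012 without D67. Myh4 turned to 0.033 with length and GC offsets and Myh1 to -0.040 without D9 and D11. The cause was not tested. Upper-quartile scaling moved the median of all genes from -0.0216 to 0.0318. No paired analysis was possible because the groups share no replicate numbers. With 3 and 4 mice, small changes were not detectable gene by gene.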
